A study of Mus musculus with 16 samples.

Results

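The centromere-proximal part of mouse chromosome 5, below 60 Mb in the mm9 build, was described as seen from 2 promoters by 4C-seq (circular chromosome conformation capture, read out by sequencing), an assay that lists the places in the genome ligated to 1 chosen locus, the viewpoint. Its members were all listed restriction sites on chromosome 5 that start below 60 Mb. There were 13155 of them among the 327988 sites of all 16 libraries (4.01%). The libraries came from mouse embryonic fibroblasts (MEFs) prepared from E13.5 embryos and still dividing at passage 4. Those homozygous for the Rb1L allele (Rb1L/L), which alters the cleft of pRb that binds LXCXE-motif proteins, were compared with those of intact Rb1 (Rb1+/+). No agent was given to either. Each genotype had 4 libraries per viewpoint, and the labels number 4 MEF pairs. The same pair identifiers recur for both promoters, which was read as 8 cultures with a library from each promoter. The labels do not say what a pair has in common or whether its cultures came from separate embryos, so p-values measure the spread between these cultures. No marker of the cell type can be checked in 4C-seq lists.

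The first viewpoint was the shared promoter of the divergent genes Pole and Pxmp2 on chromosome 5 itself. Pole encodes the catalytic subunit of a replicative DNA polymerase, and Pxmp2 a channel of the peroxisome membrane. From there the stretch is in cis, on the same chromosome, about 50 Mb or more away. The second was the shared promoter of Cdca3, needed for mitotic entry, and Usp5, which disassembles free ubiquitin chains, on chromosome 6. From it the stretch is in trans. The Pole libraries listed 11102 of the sites (10.7% of their 104085 sites) and the Cdca3 libraries 2053 (0.917% of 223903).

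As background, a chromosome folds so that contact becomes rarer with distance along it, and at long range its segments meet in alternating compartments, with gene-rich active chromatin tending to meet active chromatin and inactive chromatin the inactive. Contacts far along a chromosome or between chromosomes therefore come in blocks with gaps between them. Condensin II, a chromosome-compacting complex named in the title of the series together with pRb, helps to shape mitotic and interphase chromosomes. Mouse chromosomes have the centromere at one end, next to satellite repeats that are poorly represented in genome builds.

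In the gene order of a later RefSeq annotation (GRCm38.p6), this end of chromosome 5 begins with Cdk6, a cyclin-dependent kinase, and runs through a group of semaphorin genes for axon guidance (Sema3d, Sema3a, Sema3e), Reln, which encodes a secreted protein of cortical layering, and the developmental genes En2 and Shh. Further on come Cenpa, the histone H3 variant of centromeres, Fgfr3, a growth factor receptor, Htt, the gene of Huntington's disease, Msx1, a homeobox gene, Ncapg, a subunit of condensin I, and Ppargc1a, a regulator of mitochondrial genes. That order is given as orientation. No block or gap was assigned to a gene, because mm9 gene positions were not used here.

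Library yield differed, and sequencing depth is unknown because the lists hold no reads. Pole libraries listed 6485 to 17522 sites in all and Cdca3 libraries 15802 to 39650. At both viewpoints Rb1L/L replicate 1 stood apart, and results that it moves most are given with and without it.

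**Figure D1:**
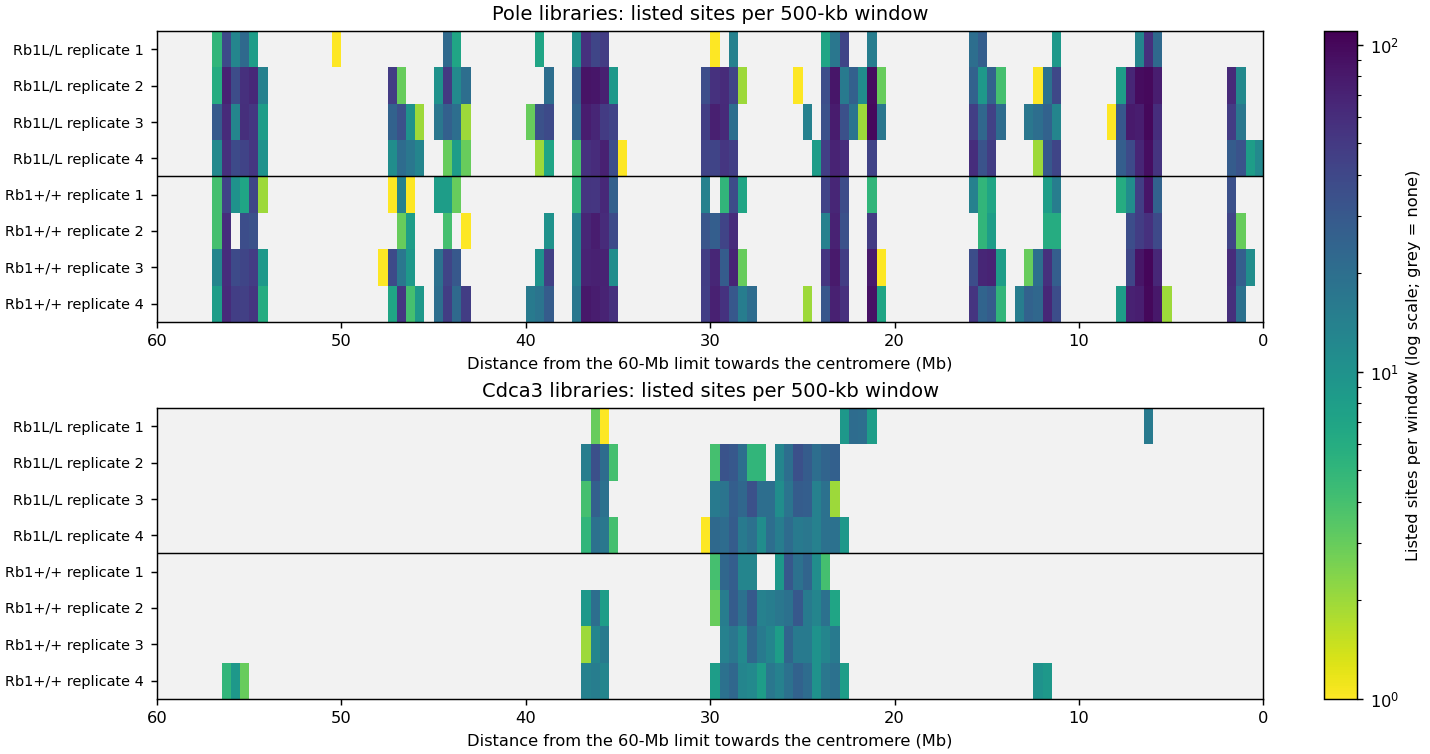
Listed sites per 500-kb window (colour, log scale, grey where no site is listed) in each of the 16 libraries, with the 8 Pole libraries in the upper panel and the 8 Cdca3 libraries in the lower, Rb1L/L rows above Rb1+/+ rows. The horizontal axis is the distance from the 60-Mb limit towards the centromere in Mb. The Pole rows show 10 blocks present in all 8 libraries, separated by gaps. The Cdca3 rows are mostly empty outside 23 to 25 Mb and 30 to 37 Mb, given as chromosome positions and not as distances on the axis.

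From Pole, the stretch was a series of short contacted blocks separated by long gaps, and the same blocks came back from library to library. No site lay in the first 3 Mb, so 57 Mb were considered, in 114 windows of 500 kb. A window counted as contacted where it held at least 1 listed site. Of the 114 windows, 61 were contacted in at least 1 Pole library and 53 (46.5%) in none. In all 8 libraries 19 windows (16.7%) were contacted, in exactly 7 libraries 12 windows, and in a single library 10. The windows in 7 libraries mostly lacked the library with the fewest sites: 8 of the 12 lacked Rb1L/L replicate 1, 3 lacked Rb1+/+ replicate 2 and 1 lacked Rb1+/+ replicate 1.

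The 19 windows present in all 8 Pole libraries formed 10 shared blocks of 9.5 Mb in total. They held a median of 63.0% of a library's sites in the stretch, from 53.2% to 90.6%. With a site in at least 7 libraries as the rule, there were 11 blocks of 15.5 Mb, which held a median of 89.6%. Without Rb1L/L replicate 1, the other 7 libraries had 13 blocks in common.

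The longest shared block was chr5:22500001-24500000. It held 155, 270, 214 and 193 sites in Rb1L/L replicates 1 to 4, against 174, 218, 225 and 242 sites in Rb1+/+ replicates 1 to 4. The lowest value was that of Rb1L/L replicate 1 and the highest that of Rb1L/L replicate 2, so the groups overlapped. The block at chr5:53000001-54500000 held 92, 266, 234 and 213 sites in the Rb1L/L libraries, against 154, 142, 252 and 255 in the Rb1+/+ libraries. Again the Rb1L/L values enclosed those of Rb1+/+.

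The block at chr5:36000001-37500000 held 65, 134, 146 and 175 sites in the Rb1L/L libraries, against 147, 118, 178 and 158 in the Rb1+/+ libraries. These groups overlapped as well, with Rb1L/L replicate 1 the lowest. A pair of blocks of 1 Mb lay at the centromeric end, as far from the promoter as the listed sites reach on this side. The block at chr5:3000001-4000000 held 43, 76, 91 and 69 sites in the Rb1L/L libraries, against 47, 63, 73 and 70 in the Rb1+/+ libraries. The block at chr5:4500001-5500000 averaged 12.3 ± 3.30 sites per 1000 cis sites in the Rb1L/L libraries and 11.1 ± 1.21 in the Rb1+/+ libraries (SD, n = 4 each). The groups overlapped in both, and each Pole library listed sites in this most distant part.

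The other 5 shared blocks were single windows, at 15.5, 31, 38.5, 44.5 and 48.5 Mb. Their values were less even. The window at 44.5 Mb held 27, 9, 23 and 33 sites in the Rb1L/L libraries, against 5, 5, 67 and 24 in the Rb1+/+ libraries, and the window at 38.5 Mb held 15, 94, 97 and 43, against 5, 49, 79 and 87. In both the groups overlapped and the range within a genotype was several-fold.

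The windows with the most Pole sites lay inside the blocks that begin at 53 and 22.5 Mb. The window starting at 53.5 Mb averaged 12.8 sites per 1000 cis sites, with 57, 97, 100 and 92 sites in the Rb1L/L libraries, against 83, 56, 102 and 100 in the Rb1+/+ libraries. The windows starting at 23 and 23.5 Mb averaged 10.3 and 9.85 sites per 1000 cis sites. Even the library of lowest yield listed 57, 56 and 41 sites in these 3 windows.

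The gaps recurred as well, in the sense that 10 stretches of at least 1 Mb held no site in any of the 8 Pole libraries. They came to 31.7 Mb, 55.5% of the length considered. The 6 longest were chr5:39169850-44003508 (4.83 Mb), chr5:25019795-29709703 (4.69 Mb), chr5:5619032-9596851 (3.98 Mb), chr5:54505400-58108180 (3.60 Mb), chr5:16954672-20345610 (3.39 Mb) and chr5:48767625-51948935 (3.18 Mb). In all 6 of them the Cdca3 libraries listed 0 sites too. A list that stops at a threshold does not show that a gap has no contacts, and the number of HindIII sites or of sites that reads can be placed on in each gap was not tested.

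Between the ends of the stretch, site density was uneven in the same way in each Pole library. Over the 8 libraries it averaged 16.3 ± 7.85 sites per Mb from 3 to 22 Mb, 32.1 ± 9.94 from 22 to 41 Mb and 24.6 ± 11.4 from 41 to 60 Mb (SD, n = 8). All 8 libraries had their lowest density from 3 to 22 Mb and their highest from 22 to 41 Mb. The density was therefore not lowest to highest in the order of distance to the promoter. These 3 equal parts were drawn after the values were seen and were not tested.

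At the level of single restriction sites the recurrence was much lower than at the level of blocks. Counting starts within 10 bp as the same site, the Pole libraries listed 4199 distinct sites in the stretch. Of these, 1414 (33.7%) were in a single library, 27.9% in at least 4 and 15 (0.357%) in all 8. In the shared blocks, which by definition hold all 15, the median site was listed in 3 of 8 libraries and 421 of 2130 sites in 1.

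Set against chromosome 5 from 60 to 100 Mb and at its distal end, the stretch was sparser in listed sites. Pole libraries averaged 24.3 ± 9.45 listed sites per Mb below 60 Mb, against 56.8 ± 15.6 from 60 to 100 Mb and 57.2 ± 13.7 at the distal end of the chromosome, the last 31.0 Mb with listed sites, past the promoter (SD, n = 8). The differences were -32.5 and -32.8 sites per Mb, lower below 60 Mb in 8 of 8 libraries each (exact sign-flip permutation test, two-sided, p = 0.00781 and adjusted p = 0.00781 over 4 tests, the smallest p that 8 libraries allow). Called regions, the stretches that the authors marked as significant, covered 30.6% ± 7.74 of the length below 60 Mb, against 42.2% ± 5.15 and 52.3% ± 5.58 (same test, p = 0.00781 each). The number of HindIII sites available per Mb is not known here, so its part in these densities was not tested. Both other stretches also lie nearer the promoter, and the part of distance was not tested.

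Windows in all 8 Pole libraries made up 16.7% of the 114 windows below 60 Mb, against 33.75% of 80 windows from 60 to 100 Mb and 41.9% of 62 windows of the distal end. Windows in no library made up 46.5%, against 41.2% and 33.9%. These shares of windows are a description, with no test.

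**Figure D2:**
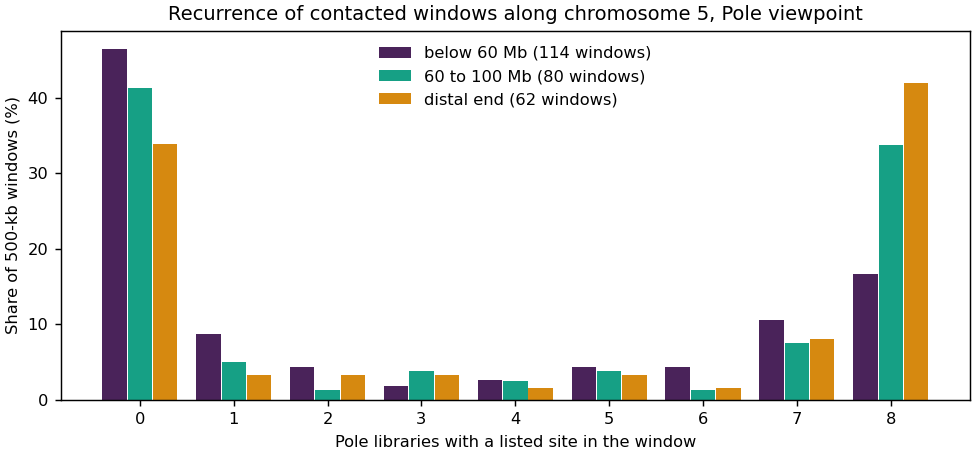
Share of 500-kb windows (percent, vertical axis) by the number of Pole libraries, 0 to 8, that list a site in them (horizontal axis), for chromosome 5 below 60 Mb, from 60 to 100 Mb and at the distal end of the chromosome. Windows below 60 Mb are in all 8 libraries in 16.7% of cases, against 33.75% and 41.9% in the other stretches.

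The genotypes did not differ detectably in how much of the stretch Pole contacted. The listed sites numbered 521, 1695, 1804 and 1506 in Rb1L/L replicates 1 to 4, against 812, 992, 1805 and 1967 in Rb1+/+ replicates 1 to 4. Both groups held a low and a high library and overlapped. As a share of the library's chromosome 5 sites, they were 13.47%, 21.8%, 22.3% and 19.7% in Rb1L/L, against 17.1%, 18.0%, 20.7% and 22.4% in Rb1+/+. The share averaged 19.3% ± 4.06 in Rb1L/L and 19.6% ± 2.42 in Rb1+/+ (SD, n = 4 each). The gap between these means was -0.238 percentage points (exact two-sided permutation test, p = 0.943, adjusted p = 1 over 14 tests, lower in 2 of 4 MEF pairs), with a 95% interval from -8.90 to 5.19. The smallest p that 4 libraries against 4 allow is 0.0286.

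Contacted windows numbered 25, 45, 50 and 45 in the Rb1L/L libraries, against 36, 32, 45 and 51 in the Rb1+/+ libraries. The means were 41.25 ± 11.1 in Rb1L/L and 41.0 ± 8.60 in Rb1+/+, a difference of 0.25 windows (exact permutation p = 1, 95% interval -26 to 18, higher in 2 of 4 pairs). Called regions covered 10.6, 18.7, 22.0 and 19.7 Mb in the Rb1L/L libraries, against 13.0, 13.6, 19.7 and 22.2 Mb in the Rb1+/+ libraries. Their difference was 0.588 Mb (exact permutation p = 0.971, 95% interval -11.7 to 8.98). In all 4 measures the groups overlapped and Rb1L/L replicate 1 was the lowest library. Without Rb1L/L replicate 1 the differences were 274 sites, 1.72 percentage points, 5.67 windows and 2.98 Mb, all higher in Rb1L/L (exact permutation p from 0.371 to 0.457 over these 4).

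**Figure D3:**
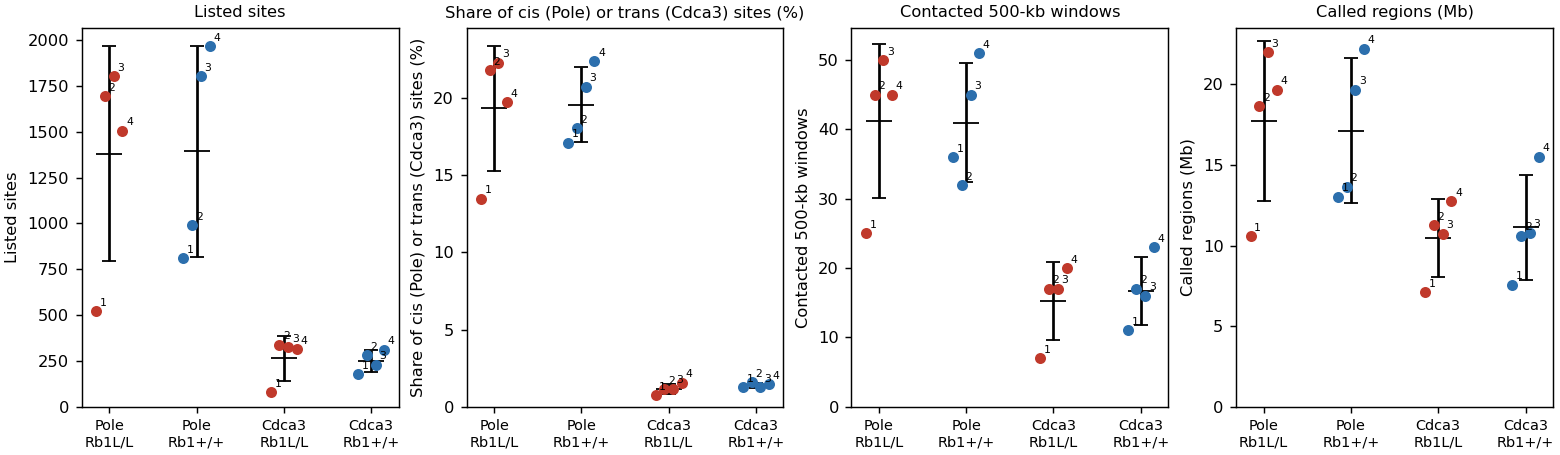
Listed sites, their share of the library's cis sites (Pole) or trans sites (Cdca3) in percent, contacted 500-kb windows and called regions in Mb below 60 Mb, each point 1 library with its replicate number and the bars the mean and SD of 4 libraries. In all 4 panels the Rb1L/L points (red) and the Rb1+/+ points (blue) of a viewpoint overlap.

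Low yield and few contacts in the stretch went together. The Pole libraries with the fewest chromosome 5 sites, Rb1L/L replicate 1 and Rb1+/+ replicates 1 and 2, had shares of 13.47%, 17.1% and 18.0%, and the other 5 libraries had shares from 19.7% to 22.4%. Because the libraries fall into a low and a high set, no correlation is given. With each library cut to the 3869 chromosome 5 sites of lowest deposited value, the number that the smallest library lists, contacted windows numbered 25, 22, 25 and 25 in the Rb1L/L libraries, against 25, 23, 24 and 25 in the Rb1+/+ libraries. The number of windows thus narrowed to 22 to 25, and 8 windows (4 Mb) were then in all 8 libraries. The share of chromosome 5 sites did not narrow in this way. After the cut it was 13.47%, 20.1%, 21.7% and 16.5% in the Rb1L/L libraries, against 15.7%, 17.3%, 18.9% and 19.4% in the Rb1+/+ libraries, with Rb1L/L replicate 1 still the lowest. The cut was chosen after the data were seen, and it was not equally strict in each library. The largest deposited value kept was 0.0499 in Rb1L/L replicate 1, 0.0135 in Rb1+/+ replicate 1 and 5.12e-05 in Rb1+/+ replicate 3.

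**Figure D4:**
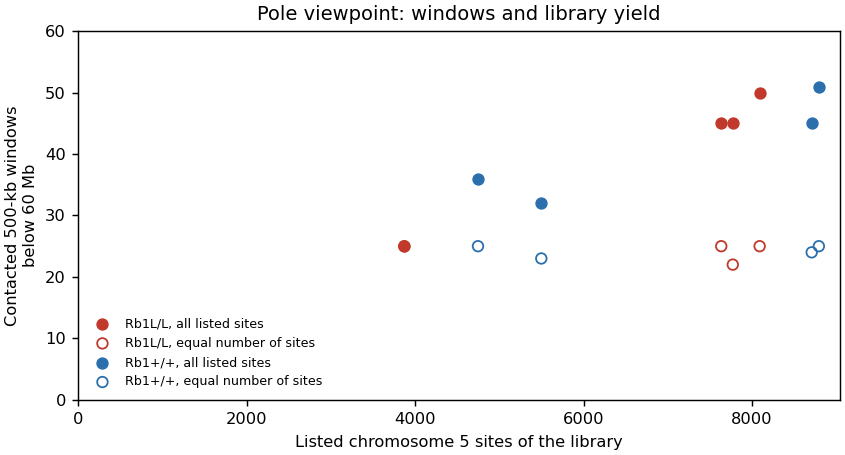
Contacted 500-kb windows below 60 Mb (vertical axis) against the number of chromosome 5 sites that each Pole library lists (horizontal axis), filled for all listed sites and open for an equal number of sites per library. Filled points run from 25 to 51 windows and open points from 22 to 25, with Rb1L/L in red and Rb1+/+ in blue.

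Most of the recurrent windows from Pole were common to both genotypes. Of the Pole windows, 23 were in all 4 Rb1L/L libraries and 28 in all 4 Rb1+/+ libraries, and 19 were in both lists, 82.6% of the Rb1L/L list and 67.9% of the Rb1+/+ list. A further 8 windows were contacted in Rb1L/L libraries alone, in at most 2 of them each, and 4 in Rb1+/+ libraries alone, in 1 each. No Pole window below 60 Mb was present in all 4 Rb1L/L libraries with at most 1 Rb1+/+ library, or the reverse, as was the case for 0 of the 167 tested windows of the whole chromosome (0%).

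The overlap of called bases between libraries is given as a description, since library pairs have libraries in common. It (bases called in both over bases called in either) averaged 62.0% ± 10.8 over 12 library pairs within a genotype and 63.8% ± 11.1 over 16 pairs between genotypes (SD over pairs). Pairs with Rb1L/L replicate 1 had 45.0% to 54.3%, and the others 56.4% to 80.8%. Of the length considered, 6.905 Mb was called in all 8 Pole libraries and 26.7 Mb in any.

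Window by window, limma was fitted to log2 of sites plus 0.5, per 1000 cis sites, over all 167 windows of chromosome 5 with at least 8 sites. Of the 61 contacted windows below 60 Mb, 55 were tested and 6 were under that minimum. None of the 55 passed an adjusted p of 0.05, against 0% of all 167, and the smallest adjusted p was 0.983 (limma, Benjamini-Hochberg). At an unadjusted p under 0.05 there were 0 higher and 0 lower in Rb1L/L, against 0% and 1.2% of all windows. Groups that did not overlap were found in 0 higher and 0 lower windows, against 0% and 0.599%. The median log2 fold change was 0.03 below 60 Mb and 0.01 over all 167 windows.

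In the 19 windows present in all 8 libraries, the largest absolute log2 fold change was 0.73, and the median 95% interval was ± 1.09. In the window of most sites, starting at 53.5 Mb, the log2 fold change was 0.05, with an interval from -0.40 to 0.50. Over all 55 windows the median interval was ± 2.70, so several-fold differences in sparse windows were not detectable.

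**Figure D5:**
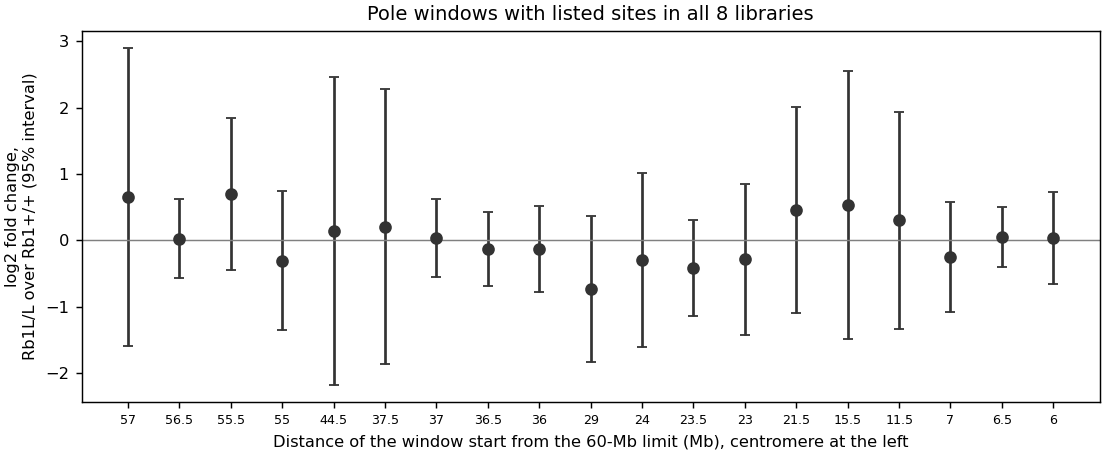
log2 fold change, Rb1L/L over Rb1+/+, of listed sites per 1000 cis sites (vertical axis, with 95% intervals from limma) in the 19 windows with sites in all 8 Pole libraries, ordered from the centromere at the left by distance of the window start from the 60-Mb limit (Mb). Every interval crosses 0, and the largest absolute value is 0.73.

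The windows with the smallest unadjusted p did not pass the adjusted test and are described by their values. The window starting at 37.5 Mb held 0, 26, 18 and 0 sites in the Rb1L/L libraries, against 0 in each Rb1+/+ library (log2 fold change 2.76 ± 1.39 SE, adjusted p = 0.983 by limma). Its fold depends on the added 0.5 and is no bound. Without Rb1L/L replicate 1 it was 3.42 ± 1.54 SE (limma, unadjusted p = 0.0491, adjusted p = 0.916). Those starting at 38 and 44 Mb followed, with log2 fold changes of 1.74 and 1.69.

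Among windows lower in Rb1L/L, the one starting at 31.5 Mb held 0, 2, 0 and 0 sites in the Rb1L/L libraries, against 7, 0, 3 and 15 in the Rb1+/+ libraries (log2 fold change -2.31 ± 1.26 SE). The one starting at 58 Mb held 0, 63, 48 and 28 sites in the Rb1L/L libraries, against 35, 42, 61 and 58 in the Rb1+/+ libraries. Its log2 fold change of -1.71 was -0.35 without Rb1L/L replicate 1, the library at 0. The one starting at 31 Mb had -0.73 on the log2 scale, and -0.68 without that library. In each of these windows the groups overlapped. At the limit of the stretch, the last window below 60 Mb held 12 sites, all in Rb1L/L replicate 4, and the first window above 60 Mb held none. Neither window held a Cdca3 site.

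From Cdca3, on another chromosome, the stretch was seen as little more than a pair of contacted zones. Of the 114 windows, 29 were contacted in at least 1 library, 85 (74.6%) in none, 12 in exactly 7 libraries and 0 in all 8. In all 4 Rb1L/L libraries there were 2 windows and in all 4 Rb1+/+ libraries 10, with 0 in both lists. Of the 12 windows in exactly 7 libraries, 10 lacked Rb1L/L replicate 1 and 2 lacked Rb1+/+ replicate 1. The 3 blocks in at least 7 libraries were chr5:23500001-24500000, chr5:30500001-32500000 and chr5:33500001-36500000. They came to 6 Mb and held a median of 80.2% of a library's sites in the stretch, from 5.13% to 97.7%, the lowest in Rb1L/L replicate 1.

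The block of 3 Mb held 0, 140, 117 and 102 sites in the Rb1L/L libraries, against 97, 114, 87 and 106 in the Rb1+/+ libraries. The block of 2 Mb held 0, 88, 102 and 84 sites in the Rb1L/L libraries, against 76, 91, 66 and 67 in the Rb1+/+ libraries. In both, Rb1L/L replicate 1 listed none and the counts of the other 7 libraries lay close together, so the groups overlapped. Per 1000 trans sites the means were lower in Rb1L/L, with its empty library included (SD, n = 4 each). They were 3.48 ± 2.35 against 5.81 ± 1.12 in the block of 3 Mb. In the block of 2 Mb they were 2.69 ± 1.87 against 4.36 ± 1.16. The block of 1 Mb held 4, 56, 45 and 36 sites in the Rb1L/L libraries, against 0, 28, 29 and 28 in the Rb1+/+ libraries. Here Rb1+/+ replicate 1 was the empty library. In these counts, not scaled for yield, the Rb1L/L library was the higher in 4 of 4 MEF pairs. Counts over the whole stretch were also higher in Rb1L/L in 3 of 4 pairs, and their share of trans sites was lower in 3 of 4. Per 1000 trans sites the block of 1 Mb averaged 1.41 ± 0.696 in Rb1L/L and 1.12 ± 0.762 in Rb1+/+ (SD, n = 4 each). The order in this block was noticed after the values were seen and was not tested, and 4 pairs allow no exact p under 0.125.

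The windows with the most Cdca3 sites lay in these blocks. The window starting at 31 Mb averaged 1.11 sites per 1000 trans sites, that at 34.5 Mb 1.01 and that at 34 Mb 0.977. The longest Cdca3 gaps were chr5:4554915-23251226 (18.7 Mb), chr5:38648374-47750373 (9.10 Mb), chr5:24591197-29949607 (5.36 Mb) and chr5:48259277-53507393 (5.25 Mb). These 4 were the only gaps of at least 1 Mb between Cdca3 sites. The next longest, chr5:3979016-4213747 and chr5:38076107-38234672, were under 0.3 Mb. No Cdca3 library listed a site from 53.9 Mb to the limit.

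The library Cdca3 Rb1L/L replicate 1 went against the other 7. It listed 78 sites in the stretch, against 313 to 338 in the other Rb1L/L libraries, and lacked all sites from 30 to 35 Mb. From 37.5 to 39.5 Mb it listed 49 sites where the other 7 Cdca3 libraries listed 0, and from 53.5 to 54 Mb it listed 16 where they listed 0. Only 19.2% of its sites in the stretch had a deposited value under 0.01, against 73.6% to 95.8% in the other Cdca3 libraries. Its called bases overlapped those of the other Cdca3 libraries by 6.54% to 25.1%, and the others overlapped each other by 48.8% to 95.9%. Without it, 5 Mb in 2 blocks were in all of the other 7 libraries.

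The genotypes did not differ detectably at Cdca3 either. Listed sites numbered 78, 338, 326 and 313 in the Rb1L/L libraries, against 177, 281, 229 and 311 in the Rb1+/+ libraries. The difference in these counts, not scaled for yield, was 14.25 sites and depended on Rb1L/L replicate 1. Without that library it was 76.2 sites (exact permutation p = 0.0571, unadjusted). The other Rb1L/L counts all lay above every Rb1+/+ count, so the groups then did not overlap. The share of trans sites went the other way, lower in Rb1L/L with and without that library. As a share of trans sites, the listed sites were 0.740%, 1.13%, 1.17% and 1.56% in Rb1L/L, against 1.28%, 1.60%, 1.26% and 1.45% in Rb1+/+. The groups overlapped, with 3 of the 4 Rb1L/L libraries below every Rb1+/+ library and replicate 4 above 3 of them. The share averaged 1.15% ± 0.334 in Rb1L/L and 1.40% ± 0.159 in Rb1+/+ (SD, n = 4 each), a difference of -0.250 points (exact permutation p = 0.2, adjusted p = 1 over 14 tests, 95% interval -0.860 to 0.295, lower in 3 of 4 pairs). Without Rb1L/L replicate 1 it was -0.114 (exact permutation p = 0.457), and without Rb1L/L replicate 4 it was -0.386 (exact permutation p = 0.0286, unadjusted).

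Contacted windows numbered 7, 17, 17 and 20 in the Rb1L/L libraries, against 11, 17, 16 and 23 in the Rb1+/+ libraries (difference -1.5, exact permutation p = 0.8, 95% interval -16 to 9). Called regions covered 7.10, 11.3, 10.7 and 12.8 Mb in the Rb1L/L libraries, against 7.58, 10.6, 10.8 and 15.5 Mb in the Rb1+/+ libraries (difference -0.662 Mb, exact permutation p = 0.83). The groups overlapped in both measures. Replicate 1 was the lowest library of each genotype.

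By limma over the 1732 windows off chromosome 6, per 1000 trans sites, 0 of the 26 tested windows below 60 Mb passed, against 0% of all windows (smallest adjusted p = 0.749), and 3 contacted windows were under the minimum. At an unadjusted p under 0.05 there were 0 higher in Rb1L/L, against 1.79% of all windows, and 2 lower, against 3.12%. Groups did not overlap in 0 higher and 0 lower windows, against 0.808% and 1.91%, and 0 windows were in all 4 libraries of a genotype with at most 1 of the opposite one, against 1.56%. Both lower windows had Rb1L/L replicate 1 at 0. The one starting at 34 Mb held 0, 20, 18 and 21 sites in the Rb1L/L libraries, against 30, 19, 24 and 19 in the Rb1+/+ libraries. Its log2 fold change was -1.76 ± 0.84 SE (limma, unadjusted p = 0.0378, adjusted p = 0.749). Without that library it was smaller, -0.75 ± 0.33 SE, and still under an unadjusted p of 0.05 (limma, unadjusted p = 0.0341, adjusted p = 0.694).

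The other, starting at 31 Mb, had a log2 fold change of -1.42 ± 0.70 SE, and -0.27 without that library. The window starting at 34.5 Mb had -1.45, and -0.36 without it. The median log2 fold change of the 26 windows was -0.87, against -0.01 over all 1732 windows, and -0.15 without Rb1L/L replicate 1 (22 windows tested). Among windows higher in Rb1L/L, that starting at 24.5 Mb had a log2 fold change of 1.36, that at 37.5 Mb 1.13, with all 21 sites in Rb1L/L replicate 1, and that at 23.5 Mb 1.00. None of these passed the test.

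Of the windows in a single Cdca3 library, 5 of 10 were in Rb1+/+ replicate 4, 4 in Rb1L/L replicate 1 and 1 in Rb1L/L replicate 4. All 10 were windows that some Pole library contacted, as were 53.5% of all 114 windows below 60 Mb. Most of the 10 lay in runs of adjacent windows, so they are not 10 separate events. Rb1+/+ replicate 4 alone listed 17 sites from 3.5 to 5 Mb and 19 from 47.5 to 48.5 Mb, both inside zones of Pole contact.

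The cis and trans views of the stretch shared part of their windows. The Pole and Cdca3 libraries of the same 8 cultures contacted 41.1 ± 9.19 and 16.0 ± 4.99 windows (SD, n = 8 each), a difference of 25.1 windows, higher at Pole in 8 of 8 cultures (exact sign-flip permutation p = 0.00781, the smallest possible). Pole views the stretch in cis and Cdca3 in trans, so promoter and position cannot be told apart in this difference. The Cdca3 libraries listed more sites over the genome than the Pole libraries did. The genotype difference in contacted windows, Pole minus Cdca3, was 1.75 windows (exact permutation p = 0.771). Of the 61 Pole and 29 Cdca3 windows with a site in any library, 25 were common, 41.0% of the Pole windows and 86.2% of the Cdca3 windows. Of the 41 Pole and 17 Cdca3 windows in at least 5 libraries, 8 were common, 19.5% and 47.1%. Over all 114 windows, 53.5% were contacted in any Pole library and 25.4% in any Cdca3 library. In at least 5 libraries it was 41 of 114 at Pole and 17 of 114 at Cdca3. Whether the overlaps differ from these shares was not tested.

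A zone with recurrent Cdca3 sites and almost no Pole sites lay from 32.5 to 35 Mb. There the Pole libraries listed 0, 1, 0 and 0 sites in Rb1L/L and 0 in each Rb1+/+ library. The Cdca3 libraries listed 0, 73, 97 and 83 sites in Rb1L/L, against 58, 95, 77 and 83 in Rb1+/+. Most of the zone lay in the seventh longest Pole gap, chr5:32194147-34837349 (2.64 Mb), and it held Cdca3 sites in 7 of 8 libraries. It was named after its values were seen.

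On either side of it both promoters had contacts. From 30 to 32.5 Mb the Pole libraries listed 15, 162, 156 and 140 sites in Rb1L/L, against 49, 130, 165 and 192 in Rb1+/+, and the Cdca3 libraries 0, 92, 118 and 106, against 80, 94, 66 and 75. From 35 to 37.5 Mb the Pole libraries listed 65 to 183 sites and the Cdca3 libraries 9 to 98. The long Cdca3 gaps ran the other way. The gap from 4.55 to 23.3 Mb held 2127 Pole sites, in all 8 Pole libraries, and that from 38.6 to 47.8 Mb held 1184, also in all 8.

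At single sites, 637 distinct sites were listed from both viewpoints, 15.2% of the 4199 Pole sites and 48.4% of the 1315 Cdca3 sites. Of the Cdca3 sites, 789 (60%) were in a single library, and the best-recurring 3 were in 6 of 8.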

How the data were processed

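Each of the 16 4C-seq libraries (HindIII, then NlaIII) came as a pair of files. One is a list of restriction sites, with deposited values between 0 and 0.05, either the p-value or the q-value of the site. The file has no header, and which of these it holds is unknown. The other lists called regions without a score. The build, mm9, is from the submitters' processing notes. How reads were aligned and regions called is not given in the sources used here. Each library has its own files. Without reads, depth is unknown and the number of listed sites is the only measure of yield.

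Sites starting below 60 Mb were counted per library, per 500-kb window and per called region in Python 3.11.15 (pandas 2.3.3, numpy 2.4.6). A shared block is a run of adjacent windows with a site in all 8 libraries of a viewpoint. A gap is a stretch between neighbouring sites of the 8 libraries pooled. Coordinates are mm9, 1-based. Genotypes were compared over the 70 assignments of 8 libraries by an exact permutation test (two-sided), which was inverted for 95% intervals. Values within a library or culture were compared by an exact sign-flip permutation test. For windows in which the 8 libraries together listed at least 8 sites, log2 of sites plus 0.5 per 1000 cis or trans sites went into limma 3.58.1 (R 4.3.3; eBayes, trended), with Benjamini-Hochberg adjustment. The script was tested on simulated data. By rule, the text names the 6 longest shared blocks and gaps, the 3 windows with the most sites, the 3 with the smallest p in each direction, any window in all 4 libraries of a genotype with at most 1 of the opposite one, and the windows at the limit. The stretch, the members and the lists were chosen with earlier results of these data known. Alternatives were other window sizes, limits, filters, pseudocounts and denominators, the MEF pair as a block, and leaving out each library. No sequence is shown, since no mm9 genome was used here.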

Additional observations from a re-analysis of the deposited data

Results flagged for a closer look

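The Cdca3 library of Rb1L/L replicate 1 listed 78 sites below 60 Mb, far from the other Rb1L/L libraries, which listed 313 to 338. Its gap to the nearest of them was 0.904 of the whole range of the group. Over 20 groups of 4 libraries examined in this way, it was the only such library, and about 1 in 20 groups shows such a gap by chance. The same library lists sites where no other Cdca3 library does and has few sites of low deposited value. The part of yield in this was not tested.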

How the results depend on the processing

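Of 74 comparisons under another processing choice, 65 kept their direction and side of the threshold, or their size, 5 turned and 4 moved. The 65 include counts of 0 called windows that stayed at 0. With an equal number of sites per library, a choice made after seeing the data, the Pole difference in sites was 5.5, that in share 0.142 points, and the Cdca3 difference in sites -22.5. With at least 3 sites per contacted window the Pole difference in windows was -0.75, and with regions of at least 1 Mb the Pole difference in coverage was -0.590 Mb. None of these passed the exact permutation test, and the cause was not tested. The Pole shared blocks came to 15.5 Mb with at least 7 of 8 libraries, 17 Mb with 1-Mb windows and 4 Mb with an equal number of sites, and the Cdca3 shared blocks to 6 Mb with at least 7 of 8 libraries. With libraries left out in turn, 93 of 120 comparisons stayed the same, 24 turned, 2 moved and 1 grew stronger. With 1 library left out at a time, the Pole genotype difference ran from -206.5 to 274 sites, from -1.23 to 1.72 points of share, from -2.75 to 5.67 windows and from -0.841 to 2.98 Mb called. At Cdca3 it ran from -10.5 to 76.2 sites, from -0.386 to -0.114 points, from -3.42 to 1.25 windows and from -1.84 to 0.802 Mb. The difference in genotype effect between viewpoints ran from -2 to 4.67 windows and the Cdca3 shared blocks from 0 to 5 Mb, with 5 Mb without Rb1L/L replicate 1 and 1 Mb without Rb1+/+ replicate 1. The lower density of Pole sites below 60 Mb held without each library, from -33.8 to -31.4 and from -34.0 to -32.3 sites per Mb.

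The MEF pair numbers were examined for pairing. Deviations of same-numbered Pole libraries correlated at 0.278, -0.0716, 0.113 and -0.103 over windows, and of Cdca3 libraries at 0.154, 0.0691, 0.114 and 0.0394. These values were low, and the main genotype tests did not pair the libraries. Each Rb1L/L library was set against the 4 Rb1+/+ libraries of its viewpoint. All Rb1L/L libraries at Cdca3, but 1 of 4 at Pole, correlated best with their own number. Some pairing at Cdca3 therefore remains possible. With the pair as a block, limma called 0 Pole and 0 Cdca3 windows (smallest adjusted p = 0.956 and 0.727), with 0 below 60 Mb at an unadjusted p under 0.05 at either. The Cdca3 share difference was -0.250 points (exact sign-flip permutation p = 0.375, where 4 pairs allow no p under 0.125). The block changed no call. Without reads, a site missed at low depth cannot be told from no contact, nor a several-fold difference in a sparse window from none.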
